A study of Mus musculus with 24 samples.

Results

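P19 cells are mouse embryonal carcinoma cells, a line of malignant stem cells that can be steered to neurons with retinoids. The data described here are those of WT P19 cells that received no retinoid, only the vehicle ethanol (EtOH), at days 2, 4 and 10. The 346 genes were chosen as all those in the deposited tables that compare ethanol at day 4 or at day 10 with ethanol at day 2, out of 1753 genes in at least 1 of the 23 tables of the series. Of these, 57 were listed at day 4, 301 at day 10 and 12 at both days.

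All cells described were WT and grew as a monolayer on gelatin in DMEM with fetal calf serum, part of it delipidated. After 4 d the protocol replaces this by Neurobasal, a serum-free neuronal medium, with N2 and B27 lacking vitamin A, for 6 d. The labels give this step for the retinoid-treated plates, and the ethanol plates are taken to have followed it. The WT plates set beside them received ATRA at 1 μM, BMS753 (RARα agonist) at 1 μM, BMS961 (RARγ agonist) at 0.1 μM, or BMS641 (RARβ agonist) and BMS961 at 0.1 μM each. Day 2 and day 4 thus belong to the serum medium and day 10 to Neurobasal, so that at day 10 the time in culture and the change of medium cannot be told apart. Each condition has 1 library of poly-T captured mRNA, so no difference has a replicate check.

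The values are log2 fold changes against the ethanol library of day 2, with unadjusted p-values, all under 0.01. The value after ± is the standard error (SE) that a fold change and its p-value imply together under a two-sided normal test, and describes the model of the deposited comparison, not the spread between cultures. Genes outside a table are called not listed, which does not mean that they were stable. The smallest absolute log2 fold change was 1.23 at day 4 and 2.77 at day 10. Median implied SEs were 0.64 and 1.42, respectively, for the genes outside the curve described next, so that only larger differences could be listed at day 10 and the numbers of genes at both days cannot be compared directly. Library depths are unknown.

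The genes fell into 2 classes by their error. At day 4, 28 of 57 genes had an implied SE between 2.24 and 2.41, and at day 10, 112 of 301 had one between 2.36 and 2.67. In each table these genes lay on a single curve of error against fold change, within 0.00137 log2 units of a smooth line, and the other genes had errors of at most 1.76 and 2.05. Among the day 10 genes on the curve, 29 shared their fold change and p-value to the last digit with another gene, such as Hoxd10, Mc1r and Tceal7, all at 7.31. For the lower genes on the curve, 35 of 39 values in the WT ligand tables of day 10 that lay on the curve too were within 0.01 of the ethanol value. The G-protein-coupled serotonin receptor gene Htr1d was an example, with -8.44 in ethanol, with ATRA, with BMS753 and with BMS641+BMS961. For the higher genes, 1 of 110 such values was that close. Curves and ties of this kind arise where 1 of 2 libraries has no reads for a gene, which was not tested since read counts were not used here. The fold changes of genes on the curve are therefore given as listed and are read neither as sizes nor as bounds.

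**Figure D1:**
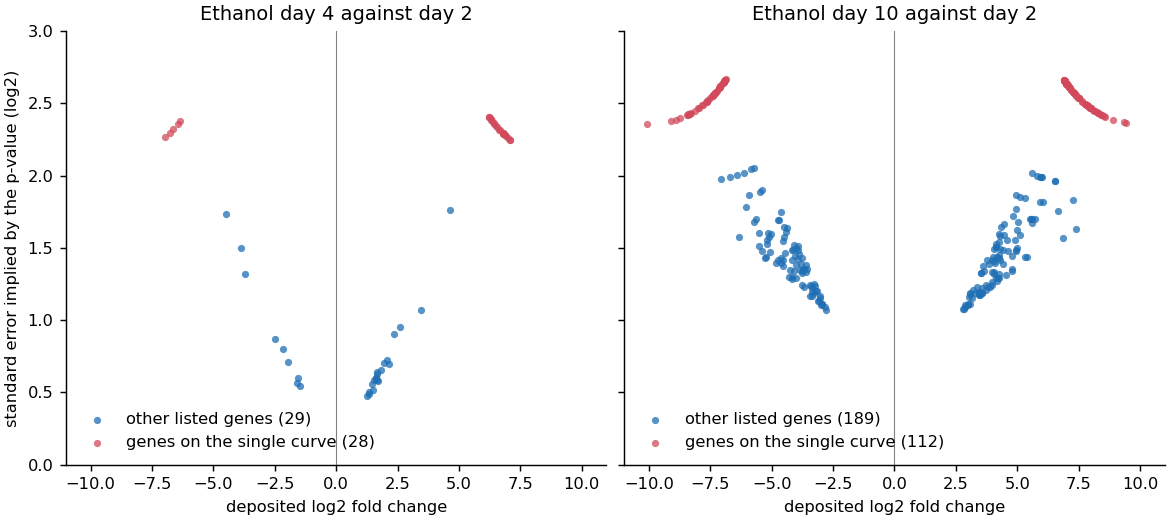
Deposited log2 fold change (horizontal axis) against the implied standard error (vertical axis, log2 units) for the 57 genes listed at day 4 (left) and the 301 listed at day 10 (right), each point a gene. Red points lie on a single curve in each panel (28 and 112 genes) and blue points are the other genes, whose errors stay at or under 1.76 at day 4 and 2.05 at day 10.

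As background, serum holds growth factors and lipids that switch on serum response factor, a DNA-binding protein that acts with actin-sensing cofactors on genes of the contractile apparatus such as actins, transgelin and calponins. Glycolytic enzymes are known targets of hypoxia-inducible factor, which acts in cells short of oxygen. Embryonal carcinoma cells stay undifferentiated through the pluripotency factors Oct4, Sox2 and Nanog and through Nodal and fibroblast growth factor signals. Neurobasal was designed for neurons and contains no serum.

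At day 4, 43 genes were listed as higher and 14 as lower than at day 2, which is 2.45% and 0.799% of the 1753 genes in any table. The 57 genes had 2 readable groups, contractile genes that were lower and glycolytic genes that were higher. Of the list of serum response and contractile genes, 18 were in any table of the series, and 5 of these (27.8%) were lower at day 4 and 0 higher. Of the hypoxia and glycolysis list, 7 were in any table, and 4 (57.1%) were higher and 0 lower. Both shares are raised by the way they are counted. Myl9, Cnn2 and Ccn1 of the first list and Ldha, Pdk1 and Pfkfb3 of the second were in the series only through this table.

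The contractile genes were close to each other in size. Myl9, a regulatory light chain of myosin, was at -2.48 ± 0.87. Tagln, transgelin, an actin-binding protein of smooth muscle (mm9 chromosome 9, 45737711 to 45744141), was at -2.17 ± 0.80. Acta2, smooth muscle α-actin (mm9 chromosome 19, 34315580 to 34329826), was at -1.96 ± 0.71, and Cnn2, calponin 2, at -1.62 ± 0.56. The matricellular protein gene Ccn1, a known target of serum and stretch, was at -1.47 ± 0.54. The macrophage growth factor gene Csf1 (mm9 chromosome 3, 107543966 to 107563387) was also lower, at -3.71 ± 1.32. None of Myl9, Cnn2 and Ccn1 was in any of the other 22 tables, day 10 included.

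The promoters of these genes show where the serum response element, the CArG box, lies. In the RefSeq windows of GRCm38.p6, which run from 250 bases before to 50 after the annotated start, the CArG box occurred in 1.63% of all 32851 windows, searched on both strands. It was found in Myl9 and Cnn2, 2 of the 4 matched genes of the 5 that were lower, and in Acta1 of the 6 matched genes of the 9 that were higher at day 10. It was also in 1 of the 36 windows of the genes higher at day 4 (2.78%), that of Ldha. Over all genes of day 10 it was in 1.99% of the windows of the higher and 0.77% of those of the lower ones, near the share of all windows. Acta2 had no exact match in its window, which says only that these letters are not there, as near matches were not searched. The search for this element was added after the values were seen. The 3 windows are printed with the CArG box in capitals, because the element is rare among promoters and binds the factor named above, as Myl9 (chr2:156775214-156775513, plus strand), Cnn2 (chr10:79988350-79988649, plus strand) and Acta1 (chr8:123894726-123895025, minus strand).
Myl9: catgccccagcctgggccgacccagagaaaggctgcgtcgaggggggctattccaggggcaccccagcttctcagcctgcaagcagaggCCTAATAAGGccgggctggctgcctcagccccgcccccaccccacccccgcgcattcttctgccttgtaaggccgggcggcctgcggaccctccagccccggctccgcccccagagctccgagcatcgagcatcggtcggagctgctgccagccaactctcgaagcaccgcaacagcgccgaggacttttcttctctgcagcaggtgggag
Cnn2: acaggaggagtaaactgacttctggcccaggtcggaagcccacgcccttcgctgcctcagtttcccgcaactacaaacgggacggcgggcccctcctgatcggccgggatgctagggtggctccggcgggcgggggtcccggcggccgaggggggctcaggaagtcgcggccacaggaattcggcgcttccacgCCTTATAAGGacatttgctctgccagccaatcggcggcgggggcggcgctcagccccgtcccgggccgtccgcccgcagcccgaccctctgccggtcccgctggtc
Acta1: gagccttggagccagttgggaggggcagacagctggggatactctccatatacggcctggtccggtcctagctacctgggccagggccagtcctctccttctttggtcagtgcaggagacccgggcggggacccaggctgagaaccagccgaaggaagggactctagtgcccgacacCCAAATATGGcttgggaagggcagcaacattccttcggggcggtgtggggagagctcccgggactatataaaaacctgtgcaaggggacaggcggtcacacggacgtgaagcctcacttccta
The box begins 161 bases before the start in Myl9, 56 in Cnn2 and 73 in Acta1.

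The glycolytic genes had small differences, with small implied SEs that do not measure the spread between cultures. Ldha, lactate dehydrogenase A, which regenerates NAD from pyruvate, was at 1.49 ± 0.52. Pdk1, a kinase that inhibits pyruvate dehydrogenase, was at 1.67 ± 0.59, and Pfkfb3, which makes the activator of phosphofructokinase, at 1.65 ± 0.63. Pfkl, the liver form of phosphofructokinase itself (mm9 chromosome 10, 77449692 to 77472828), had the smallest difference in the table, at 1.23 ± 0.47. The genes named next are outside the list and were chosen after their values were seen. Fam162a, a mitochondrial protein induced by low oxygen, was at 1.31 ± 0.51, and the secreted glycoprotein stanniocalcin 1 (Stc1) at 3.44 ± 1.07. Ccng2 (1.55 ± 0.59) and Foxo3 (1.67 ± 0.64) encode an atypical cyclin of resting cells and a transcription factor active when growth factors are low. Ldha, Pdk1, Pfkfb3, Fam162a, Ccng2 and Foxo3 were in no other table.

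Ldha has 2 windows, and the one at chr7:46845554-46845853 (GRCm38.p6, plus strand) is printed since it held the E-box CACGTG at 2 places, 145 and 48 bases before the start, shown in capitals. The other window held none, and the CArG box of Ldha is left in small letters. This motif was in 5 of 36 windows of the genes higher at day 4 (13.9%) and in 7.15% of all windows.
Ldha: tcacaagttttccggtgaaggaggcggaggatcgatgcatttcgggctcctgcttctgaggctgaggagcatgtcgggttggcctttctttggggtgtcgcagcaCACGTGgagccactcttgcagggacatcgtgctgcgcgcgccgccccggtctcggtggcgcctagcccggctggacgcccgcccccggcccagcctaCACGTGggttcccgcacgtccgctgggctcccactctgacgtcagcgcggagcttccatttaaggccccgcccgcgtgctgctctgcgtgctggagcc
A GC box, GGGCGG, was in 72.2% of the windows of the higher genes and in 69.2% of those of the lower genes at day 4, beside 35.7% of all windows.

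Other genes off the curve at day 4 were mostly higher. Anxa2, a membrane-binding annexin, was at 1.70 ± 0.58, Trim71, a stem cell RNA-binding ubiquitin ligase, at 1.84 ± 0.66, and Tnks, tankyrase, an enzyme that destabilises axin, at 1.63 ± 0.60. The chemokine gene Cxcl12 was at 2.59 ± 0.95, Spon1, an extracellular matrix protein of the floor plate, at 1.96 ± 0.71, and Kcnk6, a potassium channel, at 4.65 ± 1.76. The protease inhibitor gene A2m (2.08 ± 0.73) and the β-synuclein gene Sncb (2.15 ± 0.70) were higher here, whereas A2m was between -6.00 and -4.17 in 5 of the other day 10 tables and Sncb between -5.61 and -4.30 in 3 of them. Neither was listed in ethanol at day 10. The lower genes Resp18, a neuroendocrine protein, and 4931440P22Rik were at -3.88 ± 1.50 and -4.51 ± 1.73.

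The 10 highest and the 5 lowest values at day 4 were all on the curve. Srrm4, a splicing factor of neurons, was listed at 7.09, Ankrd53 at 7.07, Gpr155 at 7.0, Gm38438 at 6.91, the collagen chain gene Col5a3 at 6.86 and AI854703 at 6.83. Kctd12, an auxiliary subunit of GABA-B receptors, was at 6.81, Adcyap1r1, the receptor of the neuropeptide PACAP, at 6.80, and Mxd4, a repressor of Myc targets, at 6.78. Those at the low end were Arl11 (-6.96), Car7, a carbonic anhydrase (-6.79), Matn3, a cartilage matrix protein (-6.64), Fam186a (-6.44) and Acp7 (-6.35). No member of the pluripotency, Wnt, TGF beta or growth factor lists was listed at day 4.

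**Figure D2:**
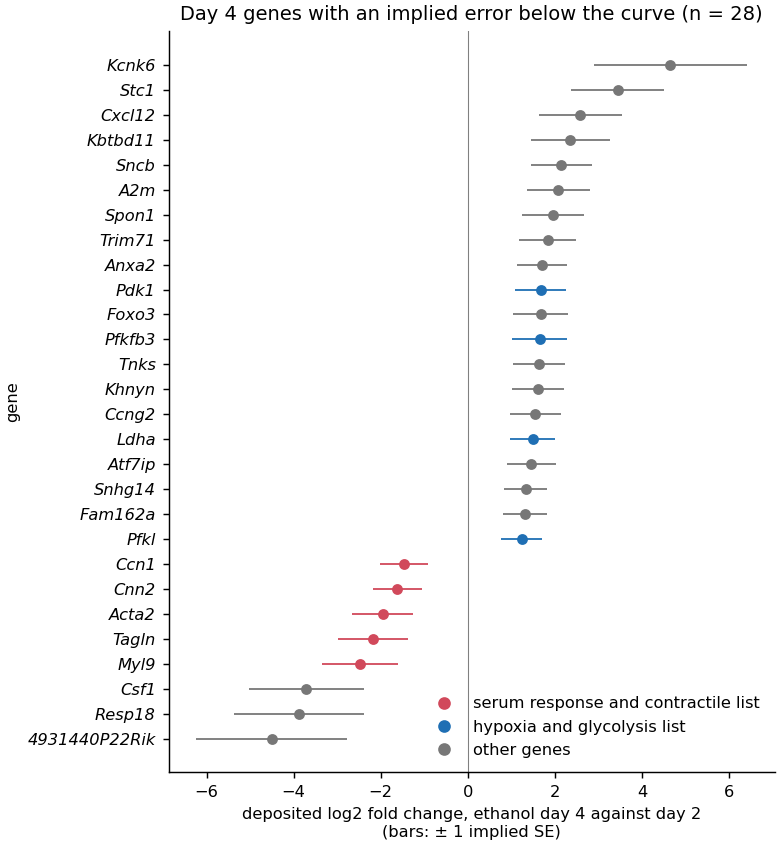
Log2 fold change of ethanol at day 4 against day 2 (horizontal axis) with 1 implied SE either side, for 28 genes off the curve. The 5 genes of the serum response and contractile list (red) lie between -2.48 and -1.47, and the 4 of the hypoxia and glycolysis list (blue) between 1.23 and 1.67.

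At day 10, 167 genes were listed as higher and 134 as lower, or 9.53% and 7.64% of the 1753 genes. Pluripotency genes and genes of lipid and amino acid metabolism were mostly among the lower ones. Genes of intermediate filaments, annexins and S100 proteins, of Wnt and BMP signals and of growth arrest and stress were mostly among the higher ones. The groups that are not named as lists were assigned by gene function after the values were seen. Of all 301 genes listed at day 10, 55.5% were higher and 44.5% lower. Counts of such a group, which are out of its listed genes only, are to be read beside these shares.

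Of the embryonal carcinoma and pluripotency list, 30 genes were in any table, and 10 (33.3%) were lower and 1 higher. Nanog, a core pluripotency factor (mm9 chromosome 6, 122657507 to 122664651), was at -3.24 ± 1.24. The Nodal co-receptor gene Tdgf1 was at -3.37 ± 1.19 and the secreted Nodal antagonist Lefty1 at -3.05 ± 1.14, while Lefty2 was on the curve at -7.64. Fgf4, the fibroblast growth factor of the early embryo, was at -4.17 ± 1.42 and Fgf15, another member of that family, at -4.83 ± 1.39. Dnmt3b, a de novo DNA methyltransferase, had the smallest difference in the day 10 table, at -2.77 ± 1.07. Foxd3, a forkhead factor of stem cells and neural crest, was at -4.63 ± 1.39, and the orphan nuclear receptor gene Nr0b1 at -4.00 ± 1.38. Trh, the thyrotropin-releasing hormone gene, was on the curve at -8.75. Within the list Klf4 was the exception, at 3.87 ± 1.39, a factor of both pluripotency and epithelia. Pou5f1, which encodes Oct4, and Sox2 were in neither ethanol table. Of genes outside the list, chosen after their values were seen, Tdh, the threonine dehydrogenase of mouse stem cells, was at -5.22 ± 1.44, and the non-coding Platr10 (-7.99), the organiser factor Gsc (-7.12) and Sox15 (-7.09) were on the curve. Nlrp4e (3.57 ± 1.19), Trim6 (3.27 ± 1.19) and Gdf9 (6.90, on the curve), also outside the list, were higher. Of the 18 genes assigned to pluripotency and the early embryo, 4 were higher and 14 lower.

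**Figure D3:**
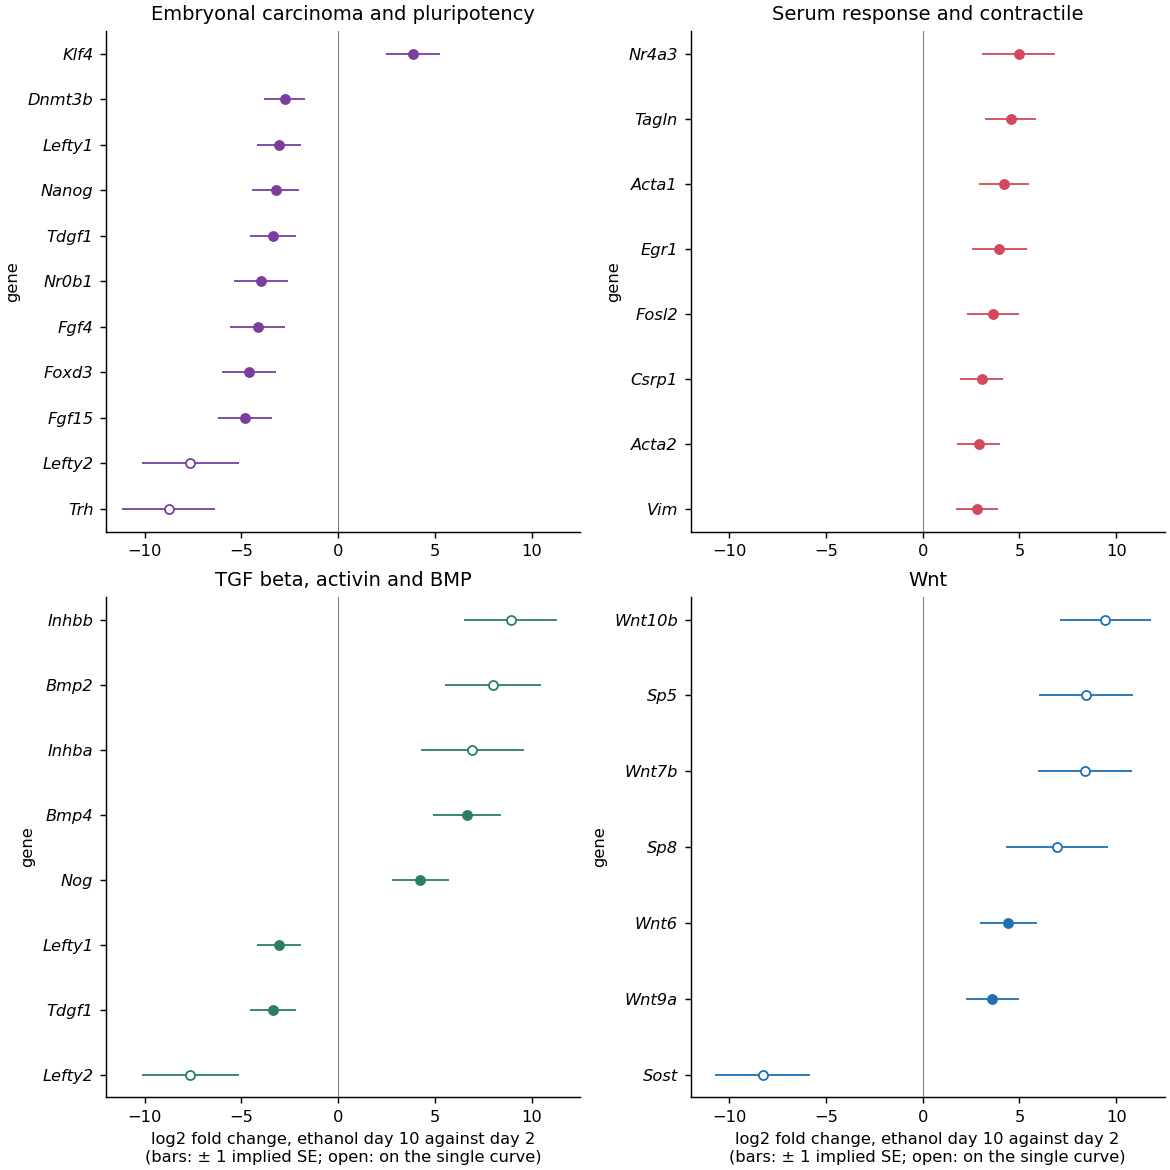
Log2 fold change of ethanol at day 10 against day 2 (horizontal axis) with 1 implied SE either side, for listed members of 4 gene lists. Open symbols are genes on the curve. In the pluripotency list 10 genes lie left of zero and Klf4 right of it at 3.87. The 8 serum response and contractile genes drawn lie right of zero, from 2.81 to 4.96.

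Contractile genes were higher than at day 2 at this time. Of the 18 serum response and contractile genes, 9 (50.0%) were higher and 0 lower, and of these Acta2 and Tagln were also among the 5 that were lower at day 4. Acta2 was at 2.89 ± 1.10, Tagln at 4.55 ± 1.31, the skeletal actin gene Acta1 at 4.20 ± 1.29 and Csrp1, a LIM protein of actin bundles, at 3.06 ± 1.11. Vim, vimentin, was at 2.81 ± 1.08. Immediate early genes of the same list were higher too, with Egr1 at 3.96 ± 1.42, Fosl2 at 3.64 ± 1.34 and Nr4a3 at 4.96 ± 1.87. Since actin genes are near copies of each other in their coding parts, reads may have been split among them.

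Of 20 genes assigned to the actin cytoskeleton, 12 were higher and 8 lower. Those higher included the caveola genes Cav1 (5.00 ± 1.50) and Cavin1 (3.99 ± 1.24), Ahnak (4.17 ± 1.27), a large scaffold protein, and Tmsb4x (3.47 ± 1.17), thymosin β4, which holds monomeric actin. The 8 lower ones included the guanine nucleotide exchange factor gene Arhgef15 (-5.65 ± 1.70) and Gas7 (-6.32 ± 1.57), a growth arrest protein of neurite outgrowth.

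All 9 genes assigned to intermediate filaments and small heat shock proteins were higher, and so were all 7 annexins and S100 proteins. Keratins of simple epithelia were Krt8 (3.50 ± 1.19), Krt18 (2.78 ± 1.08) and Krt19 (4.41 ± 1.39). Krt17, a keratin of stressed epidermis, was on the curve at 7.82. These are 4 of the 10 keratins in any table (40.0%), all higher. Cryab, αB-crystallin, a small chaperone, was the highest gene off the curve at 7.37 ± 1.63, and Hspb1, another small chaperone, was at 2.88 ± 1.09. Anxa1, Anxa2 and Anxa3 were at 4.04 ± 1.34, 3.88 ± 1.23 and 4.24 ± 1.29. S100a6 (3.97 ± 1.26), S100a10 (3.57 ± 1.19), which pairs with Anxa2, and S100a11 (3.42 ± 1.19) were close to them, while S100a4 was on the curve at 8.24. The nuclear lamina gene Lmna was at 3.18 ± 1.15.

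Matrix and adhesion genes numbered 22, of which 15 were higher, beside 55.5% of all genes listed at day 10. Of the narrower list of extracellular matrix proteins, 44 were in any table, and 4 (9.09%) were higher and 1 (2.27%) lower, near the share of all genes on the higher side. The urokinase system of plasminogen activation was listed with its receptor Plaur (5.60 ± 1.67), the protease Plau (7.92, on the curve) and the tissue activator Plat (3.51 ± 1.33). Lamb3, a laminin chain of epithelial basement membrane, was at 6.55 ± 1.96, Loxl4, which crosslinks collagen, at 6.05 ± 1.82, Tnc, tenascin C, at 4.05 ± 1.32 and Thbs1, thrombospondin, at 3.81 ± 1.23. Of 20 collagen chains in any table, Col12a1 (6.55 ± 1.96) and Col11a1 (4.89 ± 1.56) were higher and Col9a2 (-3.37 ± 1.17) was lower. P4ha3, which hydroxylates collagen, was at 5.94 ± 1.99. Lower were Acan, aggrecan (-7.51, on the curve), the tight junction gene Cldn3 (-5.20 ± 1.56), the gap junction gene Gja1 (-2.98 ± 1.11) and Lim2 (-7.82, on the curve), a lens membrane protein.

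The Wnt list had 26 genes in any table, with 6 higher (23.1%) and 1 lower. The ligand gene Wnt6 was at 4.43 ± 1.49 and Wnt9a at 3.59 ± 1.37. Wnt10b, at 9.44 the highest value of the table, Wnt7b at 8.37, and the transcription factors Sp5 at 8.43 and Sp8 at 6.94, which are known to respond to Wnt signals, were on the curve. Sost, sclerostin, a secreted Wnt inhibitor, was on the curve at -8.28. Frat1, which protects β-catenin, was at -4.11 ± 1.52 and is outside the list.

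Among the 19 genes of the TGF beta, activin and BMP list in any table, 5 were higher (26.3%) and 3 lower. Bmp4 was at 6.68 ± 1.76 and the BMP antagonist noggin (Nog) at 4.25 ± 1.45, while Bmp2 (7.99) and the activin subunit genes Inhba (6.94) and Inhbb (8.91) were on the curve. The 3 lower ones were Lefty1, Lefty2 and Tdgf1. Thus ligands of the BMP and activin branches and an antagonist were higher and the Nodal-related members lower.

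The growth factor list had 34 genes in any table, of which 3 were higher (8.82%) and 5 lower (14.7%). Egfr, the epidermal growth factor receptor, was at 4.48 ± 1.59 and Igfbp5, a binding protein of insulin-like growth factors, at 5.33 ± 1.43, and Fgf18 was on the curve at 7.13. The receptor genes Fgfr4 (-5.12 ± 1.58), Ret (-5.39 ± 1.90) and Ntrk2 (-3.75 ± 1.33) were lower, beside Fgf4 and Fgf15. Outside the list, Nppb, the cardiac natriuretic peptide gene, was at 7.27 ± 1.83, Vgf, a neuropeptide precursor, at 4.93 ± 1.48, and Csf1 at 4.14 ± 1.29. Adm, adrenomedullin, was on the curve at 7.75.

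Of 19 genes assigned to growth arrest, immediate early and stress response, 15 were higher and 4 lower, while no cyclin, cell cycle kinase or replication gene of the cell cycle list was listed. Of the cell cycle list, 5 genes were in any table, and 4 were listed in ethanol at day 10, all higher. They were the cyclin-dependent kinase inhibitors Cdkn1a (3.76 ± 1.41) and Cdkn2c (8.54, on the curve) and the stress proteins Gadd45b (6.85 ± 1.57) and Gadd45g (5.57 ± 1.70). Rbl2, a retinoblastoma relative of resting cells, was on the curve at 7.50. Plk2 (4.27 ± 1.43), Dusp10 (4.78 ± 1.45), Arrdc4 (5.39 ± 1.44) and the metallothionein gene Mt2 (3.73 ± 1.21) were also higher, as was Gpx1 (3.45 ± 1.17), which removes peroxides. Dusp26 (-8.91) and Dusp15 (-7.83), phosphatases of the same family as Dusp10, were lower and on the curve, and Ndrg2 (-3.21 ± 1.20) and Plk5 (-3.91 ± 1.51) were lower off it.

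Metabolic genes were mostly lower, with 17 of the 22 assigned to lipids, sterols and amino acids. Scd1 (-3.76 ± 1.24), a fatty acid desaturase of the sterol and fatty acid list, was lower. Cbs (-5.06 ± 1.47), of cysteine synthesis, Aldh1l1 (-6.06 ± 1.79), of folate metabolism, and Aspg (-5.19 ± 1.53), an asparaginase, were lower as well. Of the hypoxia and glycolysis list, Pfkl was at -3.45 ± 1.17 and Aldoc, aldolase C, at -3.37 ± 1.22, against 1 higher member on the curve, Adm. Mpc2, a subunit of the carrier that brings pyruvate into mitochondria is no member of the list and was at 3.74 ± 1.25. Of 33 solute carriers in any table, Slc16a6 (4.07 ± 1.41) and Slc25a35 (7.63, on the curve) were higher and the glutamate transporter gene Slc1a6 (-4.45 ± 1.47) was lower. The water channel genes Aqp3 (-4.16 ± 1.30) and Aqp5 (-7.98, on the curve) were lower.

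Regulators of development were listed on both sides, 15 higher and 6 lower. Higher off the curve were Insm1 (5.32 ± 1.84), Sox9 (4.95 ± 1.77), Sox21 (5.74 ± 1.70), Irx3 (4.59 ± 1.55), Tfap2b (6.00 ± 1.99), Elf3 (5.10 ± 1.59), an epithelial factor, and Nr2f2 (4.26 ± 1.54), an orphan receptor of the retinoid response list. Otx1 (7.97), Pitx1 (7.38), Hoxd10 (7.31) and Foxd1 (7.11) were on the curve. Of 23 Hox genes in any table, Hoxd10 and Hoxc13 (-7.38, on the curve) were the 2 listed. The retinoid X receptor gene Rxrg (-8.39), Gsx2 (-8.42), of ventral forebrain, and Lyl1 (-8.33) were on the curve on the lower side, and Ptf1a (-5.83 ± 2.05) and Klf15 (-5.26 ± 1.43) were lower off it. Rxrg, Ret and Nr2f2 were the 3 listed genes of 25 retinoid genes in any table.

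Genes of neurotransmission, channels and the senses were mostly lower, 20 of 29. They included receptors of serotonin (Htr7, -3.15 ± 1.21), histamine (Hrh3, -5.74 ± 2.05) and glutamate (Grm4, -3.73 ± 1.35), the cyclic nucleotide channel of cones Cnga3 (-7.07 ± 1.98) and the calcium pump of hair cells Atp2b2 (-5.72 ± 1.68). On the curve were Rcvrn, recoverin, of photoreceptors (-9.10), Htr1d, the dopamine receptor gene Drd2 (-6.99) and the channel Kcnt1 (-7.15). Higher was the brain fatty acid binding protein gene Fabp7, of radial glia, at 4.27 ± 1.60.

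Immune genes were listed at 10 higher and 5 lower, 10 of the 15 on the curve. Off it were Relb, of the NF-κB family (3.20 ± 1.21), Tnfrsf12a, the receptor of TWEAK (4.77 ± 1.34), and the complement inhibitor gene Cd55 (4.28 ± 1.42). The interferon-linked Gbp2 (8.46) and Cd74 (7.09), of antigen presentation, were on the curve, and Gbp2 shares reads with near copies of its family. The remaining values among the 15 highest and the 15 lowest were also on the curve. Higher were Gprc5a, a receptor gene of epithelia (9.35), Sema4f, a semaphorin (8.30), C130083M11Rik (8.29), Arap2 (8.18), Sh3rf2 (8.14), the dynein gene Dnah10 (8.10) and E230016M11Rik (8.0). Lower were Tspan10, a tetraspanin, at -10.07 the lowest value of all, Gm45929 (-8.38) and Mpped1 (-8.14).

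Smaller families gave few listed genes at day 10. Of imprinted genes, Asb4 (-5.16 ± 1.61) and the calcitonin receptor gene Calcr (-4.54 ± 1.38) were lower, 2 of 12 in any table. The endodermal uptake receptor gene Cubn (7.40) was higher and Amn (-7.14), its membrane partner, lower, both on the curve. Sema6b, a semaphorin, was at -4.52 ± 1.42. Serpinb9, a granzyme inhibitor (7.0), Tnfrsf13c, a B cell receptor gene (6.90), Zfp456 (7.89) and the odorant receptor gene Olfr31 (7.82) were on the curve. The hairpin genes Mirlet7d, at -6.88 at day 10, and Mir3061, at 6.41 at day 4, were on the curve too and are poorly captured by poly-T priming. Of 114 unnamed gene models in any table, 6 (5.26%) were higher and 1 (0.877%) lower at day 4, beside 2.45% and 0.799% of all genes. At day 10, 11 (9.65%) were higher and 6 (5.26%) lower, beside 9.53% and 7.64% of all genes. No gene of the Notch and hedgehog list was listed in ethanol, of 14 in any table, and 0 ribosomal protein genes or mitochondrially encoded genes were in any table.

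Markers of differentiated cell types were checked by name. Of 22 neuron markers, 13 were in any table, and 0 were listed in ethanol at either day, beside 11 of the 13 in the ATRA table of day 10, 9 in that of BMS753, 4 in that of BMS641+BMS961 and 0 in that of BMS961. The smallest absolute log2 fold change was 4.73 in the ATRA table and 4.46 in that of BMS753. Their limits were thus stricter than that of ethanol. The ATRA table held 546 genes, that of BMS753 543, that of BMS641+BMS961 322, that of BMS961 274 and that of ethanol 301. The 13 markers were in the series only through tables other than those of ethanol, so this selection partly sets the contrast. Of markers of epidermis and simple epithelium, 4 of 10 in any table were higher, which are the 4 keratins above. The smooth muscle markers Acta2 and Tagln, 2 of 3, and the cardiac and skeletal muscle markers Acta1 and Nppb, 2 of 7, were higher too. Of 7 neural crest markers, Tfap2b was higher and Foxd3 and Ret were lower, and of 6 endoderm markers Cubn was higher and Amn lower. None of the 13 fibroblast markers in any table, the 3 endothelial ones or the 2 trophoblast ones was listed in ethanol. Of astrocyte markers, Sox9 was higher and Aldh1l1, Aldoc and Gja1 were lower. Of neural progenitor markers, 2 of 8 in any table were listed, both higher, with Fabp7 among them. The embryonal carcinoma markers Nanog, Tdgf1 and Fgf4 were lower, 3 of 6 in any table.

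The marker lists that the study compiled for neural cells are larger and were matched by symbol. Of the neuron list, 330 genes were in any table, and 18 (5.45%) were higher and 24 (7.27%) lower in ethanol at day 10. Of 98 astrocyte markers, 11 (11.2%) were higher and 9 (9.18%) lower, and of 100 markers of oligodendrocyte precursors, 8 (8.0%) and 5 (5.0%). These shares lie near the 9.53% and 7.64% of all genes, with the higher neuron markers below it. The higher neuron markers included Anxa1, Krt18, S100a10, Mt2 and Tnc, which also belong to groups described above, and the higher astrocyte markers Fabp7, Sox9, Egfr, Thbs1 and Tnc. At day 4, 5 (1.52%), 2 (2.04%) and 1 (1.0%) markers of these lists were listed, all higher, with Spon1 in both the first and the last list. These shares were below the 2.45% of all genes listed as higher at day 4.

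For 12 genes both days had a value, and in the difference of day 10 and day 4 the shared day 2 library cancels. The smooth muscle genes crossed the level of day 2. Tagln went from -2.17 to 4.55, a difference of 6.72, and Acta2 from -1.96 to 2.89, a difference of 4.85. Csf1 went from -3.71 to 4.14, the largest difference at 7.85. Pfkl crossed in the other direction, from 1.23 to -3.45, a difference of -4.69. Each of these values had passed the p-value limit of its table, and the difference itself was not tested. Anxa2 was higher at both days, at 1.70 ± 0.58 and 3.88 ± 1.23. The other 7 were on the curve at both days. Mxd4, Rbl2, Kctd12, the retroviral restriction gene Fv1, 4930513N10Rik and 1700084E18Rik were listed as higher at both days, with differences of 0.24, 0.98, 0.37, 1.29, 0.73 and 0.71. Arl11 was listed at -6.96 on both days.

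**Figure D4:**
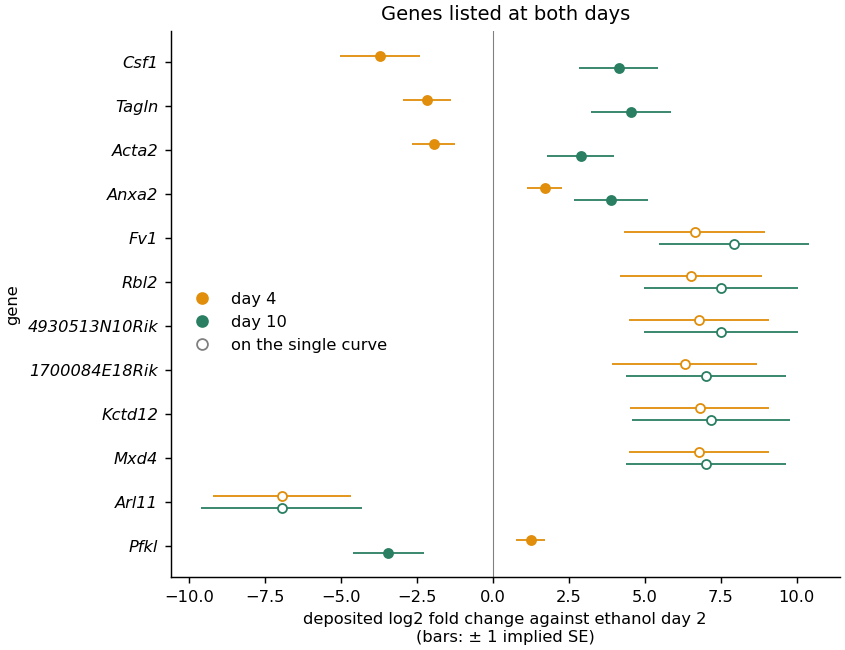
Log2 fold change against ethanol at day 2 (horizontal axis) with 1 implied SE either side, for the 12 genes listed at both day 4 (orange) and day 10 (green). Open symbols are on the curve. Csf1, Tagln and Acta2 lie left of zero at day 4 and right of it at day 10, and Pfkl the other way round.

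The ligand tables of day 10 share the day 2 library with ethanol, so each table's own values are set side by side, for genes that passed the limit in both. These medians describe genes selected in both tables for large differences and support nothing on the genes outside. The smallest listed absolute log2 fold change was 4.73 with ATRA and 4.46 with BMS753. It was 2.77 in ethanol, 2.75 with BMS641+BMS961 and 2.87 with BMS961. A gene whose ethanol value was under the ATRA or BMS753 limit could be listed there, in the same direction, only further from day 2. The unequal limits thus partly set the ATRA and BMS753 medians. For the genes higher in ethanol, ATRA minus ethanol had a median of 1.19 (n = 54 genes) and BMS753 minus ethanol 1.16 (n = 55), beside -0.07 for BMS641+BMS961 (n = 89) and -0.37 for BMS961 (n = 98). For the genes lower in ethanol the medians were -1.75 (n = 41), -1.71 (n = 43), 0.00 (n = 59) and 0.27 (n = 64). The median implied SE of the ethanol values, up to 2.38, describes single genes and is not the spread of these medians, which is unknown. Without genes on the curve the medians were 1.66, 1.39, -0.14 and -0.37 for the higher genes, in the same order of ligands. For the lower genes they were -2.30, -2.18, -0.04 and 0.07.

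Single pluripotency genes stood further apart. Tdgf1 was at -3.37 in ethanol, -4.37 with BMS961, -5.12 with the combination, -10.03 with BMS753 and -10.62 with ATRA. Nanog followed the same order, at -3.24, -3.51, -4.32, -5.47 and -6.16. Fgf4 was at -4.17 in ethanol and at -3.28, -3.37, -8.41 and -8.68 in the same tables. Dnmt3b was at -2.77 in ethanol, -7.47 with BMS753 and -7.81 with ATRA, and Lefty1 at -3.05, -8.28 and -9.24. In ethanol these genes were thus lower than at day 2. Among the WT day 10 values listed, that of ethanol was nearest to day 2 for each, Fgf4 excepted. All these ethanol values were under the ATRA and BMS753 limits of 4.73 and 4.46, so lower values listed there had to be further from day 2. The limits of BMS961 and the combination were near that of ethanol, and there Tdgf1 and Nanog were further from day 2 as well. Dnmt3b and Lefty1 were not listed with BMS961 or the combination. Of the other lower genes of the list off the curve, Nr0b1 also had its ethanol value nearest to day 2. It was at -4.00 in ethanol, -4.20 with BMS961, -6.68 with the combination, -7.70 with BMS753 and -7.16 with ATRA. Foxd3 was at -4.63 in ethanol, -4.40 with BMS961, -7.72 with BMS753 and -6.39 with ATRA, and was not listed with the combination. Fgf15 was at -4.83 in ethanol, -5.26 with BMS961 and -4.82 with the combination, and was not listed with BMS753 or ATRA.

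Among higher genes Fabp7 was at 4.27 in ethanol, 5.73 with BMS961, 7.27 with the combination, 9.71 with BMS753 and 10.42 with ATRA. For Nr2f2 the values were 4.26, 5.06, 5.60, 6.92 and 7.22, and for Igfbp5 5.33, 5.51, 5.98, 8.14 and 8.24. The reverse order was found for Tagln, Cryab, Acta1 and Gadd45b, chosen after their values were seen. Tagln was at 4.55 in ethanol, 3.84 with BMS961 and 3.01 with the combination, and Cryab at 7.37, 6.51 and 6.35. Acta1 was at 4.20, 3.38 and 3.30, and Gadd45b at 6.85, 6.48 and 5.94. These 4 genes were not listed with ATRA or BMS753. The limit of the ATRA table, 4.73, was higher than the ethanol values of Tagln and Acta1, and that of BMS753, 4.46, was higher than that of Acta1. Other genes of the same groups had larger values with ATRA and BMS753 than in ethanol. Egr1 was at 3.96 in ethanol, 3.90 with BMS961, 4.45 with the combination, 6.05 with BMS753 and 6.19 with ATRA. For Gadd45g the values were 5.57, 5.58, 5.96, 6.94 and 7.38, and for Cdkn1a 3.76, 3.81, 4.61, 5.18 and 5.36. Nr4a3 was at 4.96 in ethanol, 7.72 with BMS753 and 6.36 with ATRA, and Tmsb4x at 3.47, 4.84 and 5.22. The ethanol values of Egr1, Cdkn1a and Tmsb4x, and of Fabp7 and Nr2f2, were under the ATRA and BMS753 limits. For these genes only a larger value could be listed with ATRA or BMS753, so that part of their order was set by selection. The ethanol values of Gadd45g, Nr4a3 and Igfbp5 were over both limits. Among the values listed, the contractile and stress genes had no common order.

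**Figure D5:**
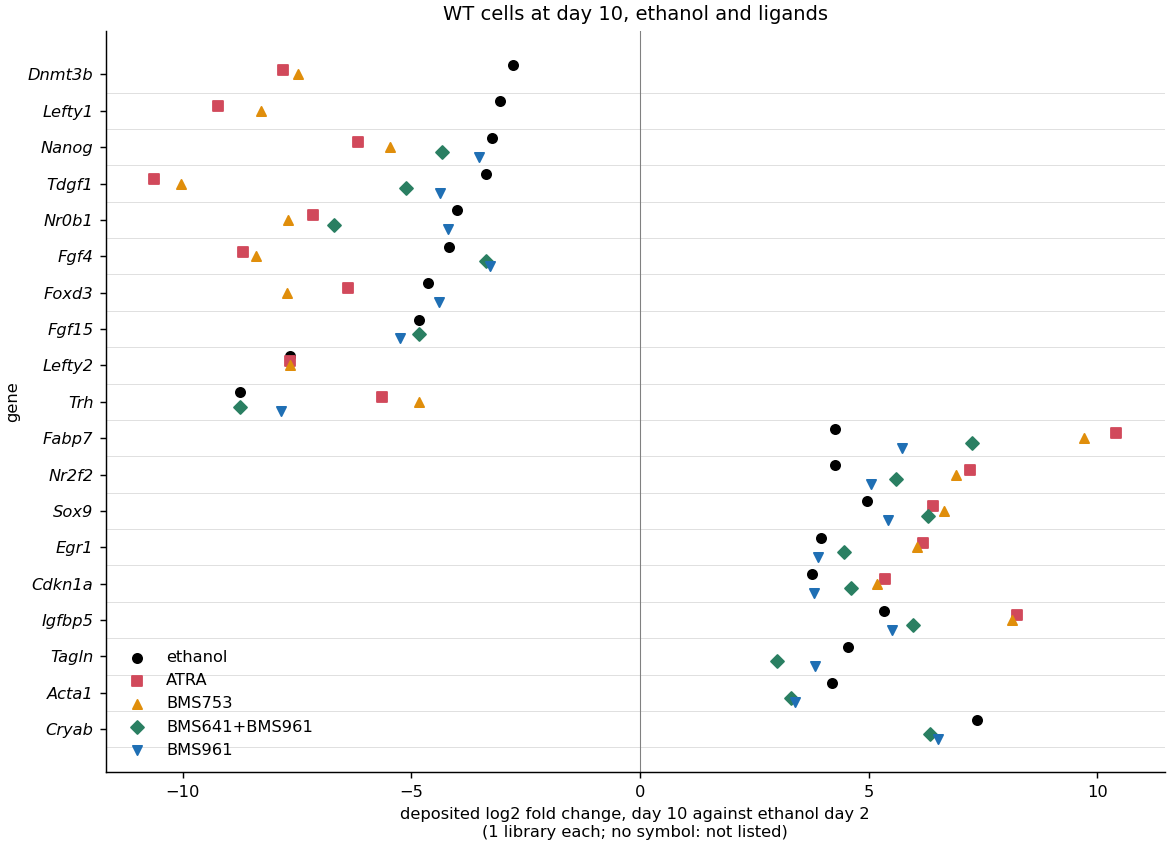
Log2 fold change at day 10 against ethanol at day 2 (horizontal axis) for ethanol and the 4 ligand conditions of WT cells, each symbol 1 library. A missing symbol means not listed. Among the symbols drawn, ethanol lies nearest to zero for Tdgf1 (-3.37) and Fabp7 (4.27), and farthest for Tagln (4.55) and Cryab (7.37). The ethanol values of Tdgf1 and Fabp7 are under the smallest absolute values listed with ATRA (4.73) and BMS753 (4.46).

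Over all 23 tables, 78 of the 346 genes were listed in 1 table, 23 of them at day 4 and 55 at day 10. At the other end, Mxd4 was listed in 21 tables, Kctd12 and Bmp4 in 20, and Cnga3, Htr1d and Enpp3, an ectonucleotide phosphodiesterase (-2.94 ± 1.11), in 19. Bmp4 lay between 5.36 and 7.86 in the other 15 tables of day 10, against 6.68 in ethanol. Arrdc4, an arrestin-domain protein induced by glucose, lay between 4.72 and 6.39 in all 15, against 5.39 in ethanol. All these tables use the same day 2 library, so the values of a gene in them are not independent of each other.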

How the data were processed

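RNA from WT P19 cells in ethanol was sequenced with 1 library per time point. Per the labels, poly-T captured mRNA libraries were made with the NEBNext Ultra II kit. The authors used Bowtie2 2.1.0 on mm9 for mapping and featureCounts for gene counts, and compared each library with ethanol at day 2 in DESeq2. How DESeq2 estimated the spread without replicates, its version and whether counting used strand are not given in the sources used here. For each listed gene the authors deposited a log2 fold change and a p-value without adjustment, and for ATRA at day 2 a standard error, treated as a score in log2 units. The tables hold nothing else, so these values are the data. Read counts and depth were not used here.

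The implied SE was the absolute fold change divided by the normal quantile of the p-value. In the table with a deposited SE its largest relative difference was 4.27e-08 (144 genes), and the calculation was tested on simulated data. Genes with an implied SE over 2.2 were taken as on the curve. Gene lists were matched by exact symbol, and each count stands beside the share of the 1753 genes in any table. No test was run, since each condition has 1 library. The members, lists and alternatives were chosen with earlier results of these data known. The genes named were those listed at both days, the 15 highest and lowest at day 10, the 10 highest and lowest at day 4 and listed members of the lists, and others by function, chosen after their values were seen. Coordinates of genes are those of the mm9 annotation, found for 309 of 346 genes, and promoters are RefSeq windows of GRCm38.p6, found for 263. Alternatives were other limits on fold change and p-value, removal of unnamed genes, other symbol matching, means and, added after the data were seen, removal of genes on the curve. Calculations used scipy 1.17.1, pandas 2.3.3 and numpy 2.4.6 under Python 3.11.15, and plots matplotlib 3.10.9. Not all 346 genes are named, and some items are not reported here.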

Additional observations from a re-analysis of the deposited data

Results flagged for a closer look

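Genes whose ethanol values lay on opposite sides of day 2 at day 4 and at day 10 were Acta2, with a day 10 minus day 4 difference of 4.85 log2 units, Csf1 with 7.85, Tagln with 6.72 and Pfkl with -4.69. Each value rests on 1 library, and the difference between the days was not tested. Time in culture and medium cannot be told apart in these differences.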

How the results depend on the processing

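No paired analysis was possible because each condition has 1 library and the labels give no replicate numbers. Of 64 alternative values, 45 stayed near the main one and 19 moved. With an absolute log2 fold change over 5, the day 4 genes numbered 23 higher and 5 lower and the day 10 genes 91 and 70. With p under 0.001, they numbered 0 and 0 at day 4 and 32 and 29 at day 10. Without genes on the curve, they numbered 20 and 9 at day 4 and 101 and 88 at day 10. With p under 0.001, the neuron, astrocyte and oligodendrocyte precursor markers at day 10 numbered 3, 1 and 4 higher and 6, 5 and 2 lower. The median of day 10 minus day 4 was 0.86 over the 12 genes in both tables and 4.85 without those on the curve, since 7 of the 12 lie on it, and could not be had at p under 0.001 in both tables. Limits on depth could not be given without counts.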
